A study of Mus musculus with 6 samples.

Results

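The mouse genes Cox7a2l, Cox7a2, Cox7a1, Higd1a and Higd2a are described here, chosen by name as the Cox7a family of respiratory complex IV and 2 factors of the hypoxia-induced domain family linked to complex IV and its supercomplexes. All 5 were found among the 52740 gene rows of the count table, by gene identifier without its version. The RNA came from C2C12, an established line of mouse myoblasts from C3H leg muscle, kept in DMEM with 10% fetal bovine serum and penicillin-streptomycin. The siCTRL group (3 libraries) was transfected with a random control siRNA and the siCOX7A2L group (3 libraries) with an siRNA against Cox7a2l, both with the lipid reagent RNAiMAX. The 2 groups share the cell line, the medium and the transfection, and differ in the siRNA by label. The siRNA sequence is not given in the sources used here, nor is the time from transfection to harvest. No label says whether a replicate is a culture of its own, so each p-value below reflects the spread between libraries, which may be technical.

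In the inner mitochondrial membrane, complex III passes electrons to cytochrome c, and complex IV (cytochrome c oxidase) passes them on to oxygen. Both can assemble into larger supercomplexes, together with or without complex I. Cox7a2l, also called SCAF1 or COX7RP, can take the place of a Cox7a subunit in complex IV and tether complex IV to complex III. Cox7a2 is the widely expressed Cox7a subunit and Cox7a1 is the isoform of heart and skeletal muscle. Higd1a is a small membrane protein induced by hypoxia that binds complex IV, and Higd2a takes part in the assembly of complex IV and of supercomplexes that hold it.

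The coding sequences show where the family members differ and how closely a pseudogene row, described below, resembles Cox7a2l. In the annotation used here the Cox7a2l transcript holds a reading frame of 111 codons before the stop, Cox7a2 one of 83 and Cox7a1 one of 80. The processed pseudogene Gm6969, an intronless copy of the Cox7a2l message, still holds an open frame of 113 codons. Its 342 bases carry 6 that the annotated Cox7a2l frame lacks, and 2 substitutions, T220A and C309T (the Cox7a2l base first, positions counted from 1 at the A of the Gm6969 start codon). Outside the 6 bases, 99.4% of bases were the same. The stretch around the difference is printed 5′ to 3′, with 30 bases on each side. In Cox7a2l and Gm6969 capitals mark bases that differ between them. In the paralogs, placed on the Gm6969 stretch without gaps, capitals mark the bases lined up with the 6 extra ones.
Cox7a2l: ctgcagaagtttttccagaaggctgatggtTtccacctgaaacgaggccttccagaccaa
Gm6969: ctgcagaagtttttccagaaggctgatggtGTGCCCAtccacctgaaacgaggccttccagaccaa
Cox7a2: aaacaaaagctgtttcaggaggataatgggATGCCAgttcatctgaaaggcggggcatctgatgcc
Cox7a1: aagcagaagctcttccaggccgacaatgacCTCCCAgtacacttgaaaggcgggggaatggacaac
A placement without gaps sets paralog bases against the 6 extra ones in any case, and a placement with gaps was not tried. Of the 66 bases of the stretch, 38 were the same in Cox7a2 and Gm6969 and 37 in Cox7a1 and Gm6969, with 4 and 3 of the 6 in capitals. As background, laboratory mouse strains are known to carry either a longer or a shorter form of Cox7a2l that differ at this place, and the reference genome comes from C57BL/6J, which has the shorter form. Which form these cells carry was not tested, since no reads were used here.

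Library totals ran from 9890218 estimated counts in siCOX7A2L replicate 3 to 17077826 in siCTRL replicate 3. The replicate 3 libraries stood apart from the other 4 on the first principal component (61.2% of the variance). The 13 mitochondrially encoded protein genes made up 1.61% and 2.78% of their counts, against 0.589% to 0.616% in the others. The fold changes below therefore compare libraries of the same replicate number (edgeR quasi-likelihood test with the replicate number as a block, Benjamini-Hochberg adjustment over 15022 genes, threshold 0.05). All 6 myoblast markers were detected, with a summed level of 1439 to 2012 CPM (counts scaled to the TMM-adjusted library total) in siCTRL and 1326 to 3029 in siCOX7A2L, highest in siCOX7A2L replicate 3. The 8 markers of other cell types summed to 15.3 to 17.1 CPM in siCTRL and to at most 22.8 in siCOX7A2L, most of it Pdgfra, with 1 of the 8, the epithelial Epcam, at 0. In bulk RNA fewer cells that express a gene and less of its message per cell cannot be told apart.

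Per transcript length, as the authors' TPM, Cox7a2 was the most abundant member in the controls and Cox7a1 the least. The TPM levels in siCTRL were 99.0 ± 6.53 for Cox7a2, 54.5 ± 1.45 for Cox7a2l, 27.4 ± 8.71 for Higd2a, 13.1 ± 0.982 for Higd1a and 1.84 ± 0.251 for Cox7a1 (SD, n = 3 each). No neighbours in this order overlapped. In siCOX7A2L they were 77.9 ± 30.9 for Cox7a2, 37.6 ± 13.4 for Higd2a, 8.53 ± 1.27 for Higd1a, 4.49 ± 2.07 for Cox7a2l and 2.04 ± 1.13 for Cox7a1 (SD, n = 3 each). Cox7a2l thus stood below both Higd genes in each siCOX7A2L library. There the ranges of Cox7a2 and Higd2a overlapped, as did those of Cox7a2l and Cox7a1, and in replicate 3 Higd2a (53.1 TPM) stood above Cox7a2 (42.7 TPM). One gene row without a symbol took 36.9% to 42.5% of all TPM in siCTRL and 44.2% to 53.6% in siCOX7A2L. TPM levels of all other genes are pressed down by it, and its part in the lower TPM of Higd1a and Cox7a2 was not tested. Ratios between genes within a library do not depend on it.

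**Figure D1:**
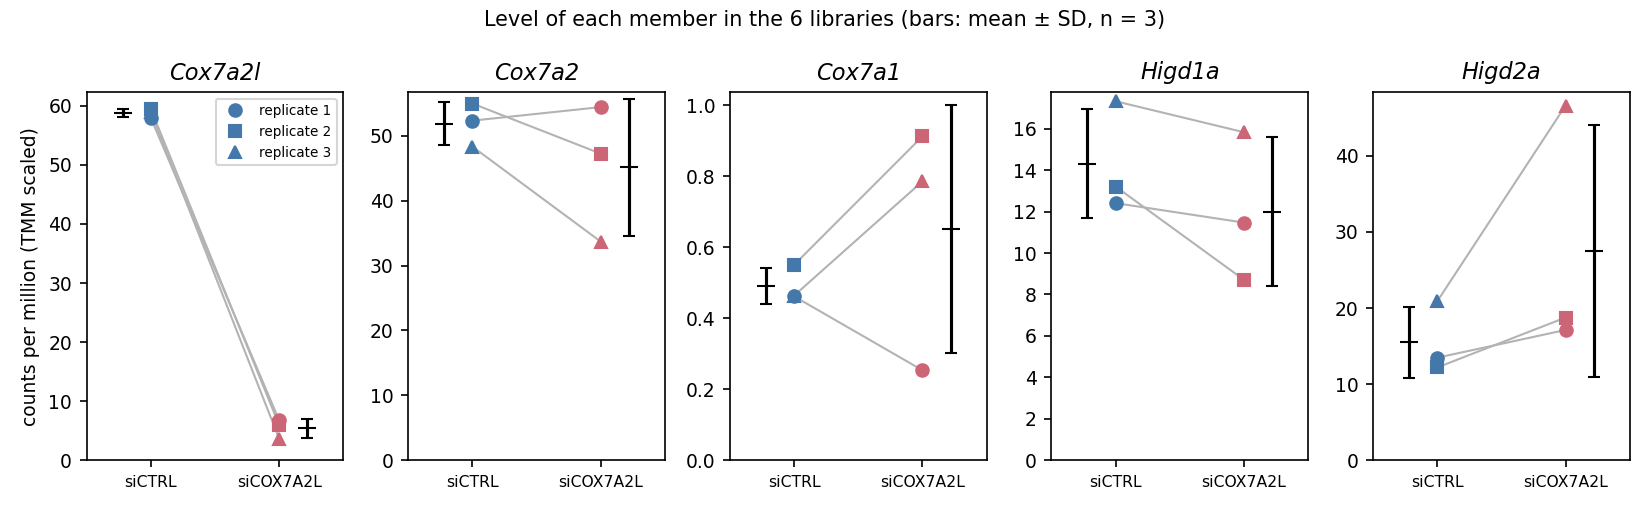
CPM (linear axis from 0) of the 5 members in each library, with grey lines joining libraries of the same replicate number and black bars for the mean ± SD (n = 3). Cox7a2l is the member whose groups do not overlap, and the replicate 3 libraries (triangles) are the highest of their group for Higd1a and Higd2a.

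Cox7a2l (ENSMUSG00000024248.15), the target of the siRNA, fell in all 3 siCOX7A2L libraries. Its level was 58.0, 59.5 and 58.9 CPM in siCTRL replicates 1, 2 and 3 and 6.72, 5.90 and 3.59 CPM in siCOX7A2L replicates 1, 2 and 3. The controls lay close together, the groups were far apart, and replicate 3 was the lowest of the siCOX7A2L libraries. The remaining level was 11.6%, 9.92% and 6.10% of the control of the same number. These values rest on 864 to 1017 estimated counts per control library and 106, 84 and 32 per siCOX7A2L library. The fitted level was 0.0923 times the control, with a 95% interval from 0.0685 to 0.124 (log2 fold change -3.44 ± 0.19, where the error is the standard error, SE; edgeR adjusted p = 1.9e-05). It had rank 2 by p and rank 4 by size among 15022 genes. Of the 4 members that could be tested it was the 1 called, where 0.726% of all tested genes were called, 0.293% as lower and 0.433% as higher, and 7.62% had siCOX7A2L libraries all below the siCTRL libraries. Without the block, where 0.0133% of genes were called, the edgeR adjusted p was 0.0122, and it lay between 0.0816 and 0.286 there when siCTRL replicate 1, 2 or 3 or siCOX7A2L replicate 1 or 2 was left out. The log2 fold change then stayed between -3.61 and -3.42.

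**Figure D2:**
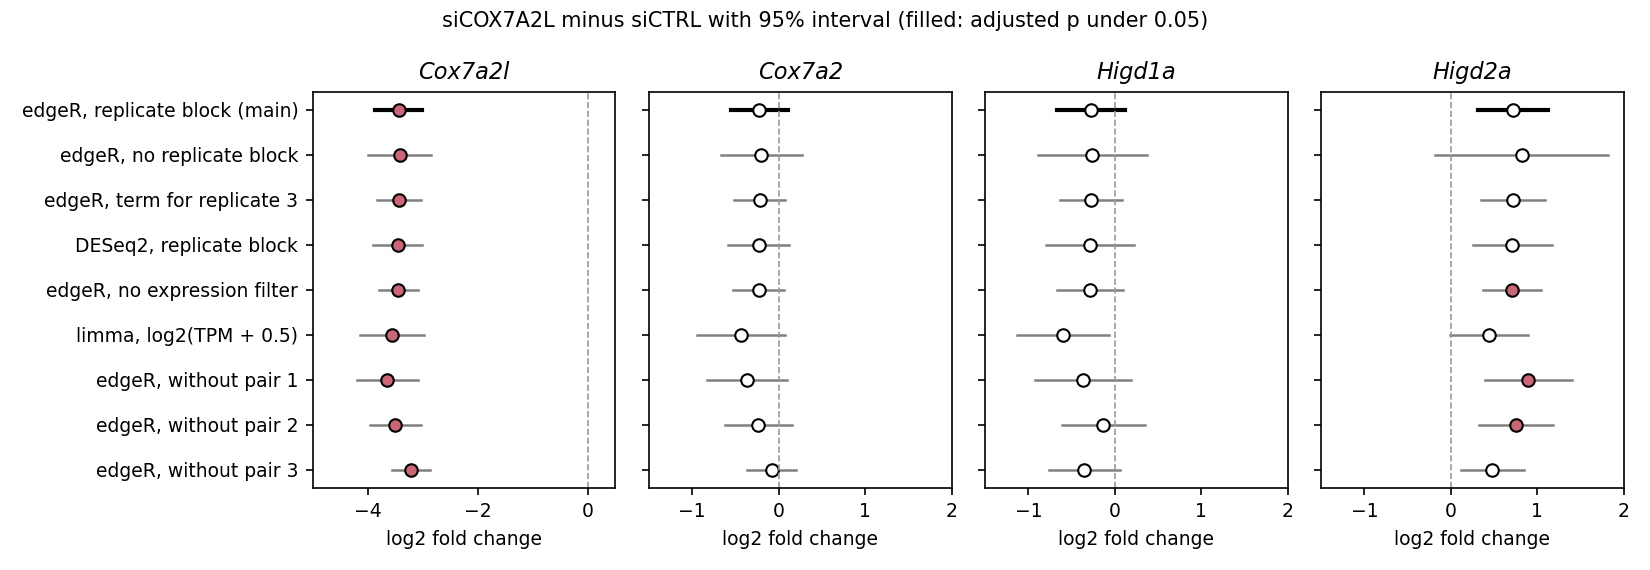
Log2 fold change (siCOX7A2L minus siCTRL, horizontal axis) with its 95% interval for the 4 tested members under 9 fits, filled where the adjusted p was under 0.05. Cox7a2l is called in all 9, Cox7a2 and Higd1a in 0, and Higd2a in 3.

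The Gm6969 row (ENSMUSG00000066553.6) fell along with Cox7a2l. Its level was 18.9, 18.9 and 26.7 CPM in siCTRL replicates 1, 2 and 3 and 1.01, 0.913 and 0.674 CPM in siCOX7A2L, with no overlap. The fitted level was 0.0431 times the control, with a 95% interval from 0.0291 to 0.0636 (edgeR adjusted p = 1.9e-05). Of the 312 words of 31 bases in the Gm6969 transcript, 244 (78.2%) also occur in Cox7a2l transcripts, so an estimator of counts can move reads between the rows. Of the 68 words absent from Cox7a2l, 36 cover at least 1 of the 6 extra bases printed above. The Gm6969 level was 32.7%, 31.8% and 45.3% of the Cox7a2l level in siCTRL replicates 1, 2 and 3, against 15.1%, 15.5% and 18.8% in siCOX7A2L. The share was thus lower in each siCOX7A2L library, on 6 to 16 counts of Gm6969 there. With both rows summed, the log2 fold change was -3.67 ± 0.20 (SE, edgeR adjusted p = 2.8e-05), a lower remaining level than for Cox7a2l alone. Whether Gm6969 is transcribed in these cells cannot be read from these rows.

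**Figure D3:**
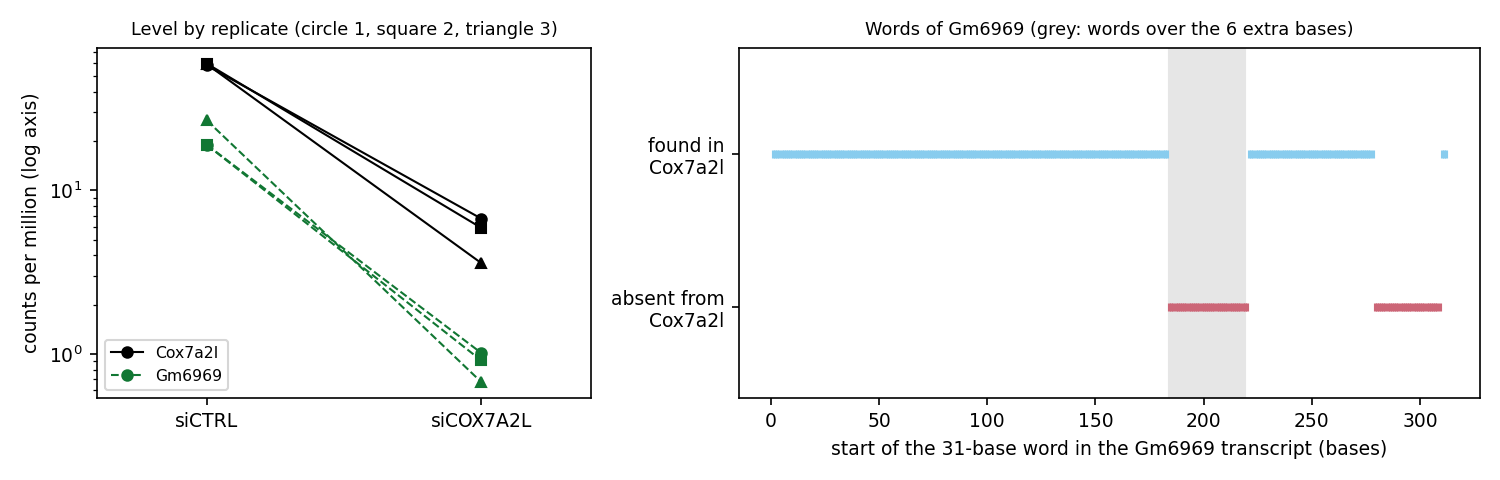
Left, CPM of Cox7a2l and Gm6969 in each library on a log axis, with a marker shape per replicate number. Right, each 31-base word of the Gm6969 transcript by its start, as found in or absent from Cox7a2l transcripts, with the words over the 6 extra bases in grey; the 68 absent words form 2 blocks, 1 of them over those bases.

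Other members had few rows of this kind. Higd1a shared 76.0% of the words of Gm9790 and 20.8% of those of Gm14925, and both pseudogene rows had at most 3 counts in any library. Cox7a2 shared 12.4% of the words of Gm13433. Cox7a1 and Higd2a shared none with another annotated gene. Of the 5 members, Higd1a was the 1 that overlaps another annotated gene, the antisense Gm47112.

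Cox7a2 (ENSMUSG00000032330.8), the subunit whose place Cox7a2l can take, was not called. It had 52.4, 55.0 and 48.3 CPM in siCTRL replicates 1, 2 and 3 and 54.4, 47.3 and 33.7 CPM in siCOX7A2L. The groups overlapped, and siCOX7A2L replicate 3 was the lowest library. The fitted level was 0.857 times the control with a 95% interval from 0.683 to 1.07 (log2 fold change -0.22 ± 0.15 SE, edgeR adjusted p = 0.471). A fall to under 0.683 times or a rise to over 1.07 times the control lies outside that interval of the main fit. Other fits gave wider intervals on the log2 scale, from -0.66 to 0.27 without the block and from -0.83 to 0.09 without pair 1. Without pair 3, the log2 fold change was -0.08 (edgeR adjusted p = 0.836).

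Cox7a1 (ENSMUSG00000074218.4), the muscle isoform, was close to the lower limit of detection. It had 7, 8 and 8 estimated counts in siCTRL replicates 1, 2 and 3 and 4, 13 and 7 in siCOX7A2L, too few for the expression filter. The level was 0.492 ± 0.0506 CPM in siCTRL and 0.651 ± 0.350 CPM in siCOX7A2L (SD, n = 3 each). A fit without the filter gave a log2 fold change of 0.28 with a 95% interval from -1.05 to 1.61 (edgeR adjusted p = 0.908). Changes within that interval, in either direction, were not excluded at this depth. The other muscle isoforms of complex IV, Cox6a2 and Cox8b, were at 0 to 0.449 CPM in all 6 libraries.

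Cox7a2l was a smaller part, and Cox7a2 a larger part, of the Cox7a messages in each siCOX7A2L library than in any control. The shares add up to a fixed whole, so a fall of Cox7a2l raises the Cox7a2 share by arithmetic. Cox7a2 itself did not rise (fitted level 0.857 times the control, not called). Cox7a2l made up 34.4%, 33.7% and 37.2% of the summed TPM of the 3 Cox7a genes in siCTRL replicates 1, 2 and 3 and 5.77%, 5.10% and 4.71% in siCOX7A2L. Cox7a2 made up 63.7 ± 1.86% in siCTRL and 92.0 ± 1.16% in siCOX7A2L, and Cox7a1 1.18 ± 0.122% and 2.77 ± 1.69% (SD, n = 3 each). The ratio of Cox7a2 to Cox7a2l TPM was 1.82 ± 0.147 in siCTRL and 17.8 ± 1.60 in siCOX7A2L (SD, n = 3 each). The Cox7a2l share did not overlap between the groups (exact two-sided permutation test, p = 0.1, the smallest that 3 against 3 libraries can give). That separation restates the fall of the siRNA target and is not a separate result. With the TPM of Gm6969 added to Cox7a2l, the share was 61.4 ± 4.46% in siCTRL and 9.42 ± 0.602% in siCOX7A2L (SD, n = 3 each). The Gm6969 transcript is short, so TPM gives each of its counts more weight. By CPM, Gm6969 was at 31.8% to 45.3% of Cox7a2l in siCTRL. If those counts are Cox7a2l reads, the summed TPM share overstates Cox7a2l. The share with those counts placed on the Cox7a2l length was not computed.

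**Figure D4:**
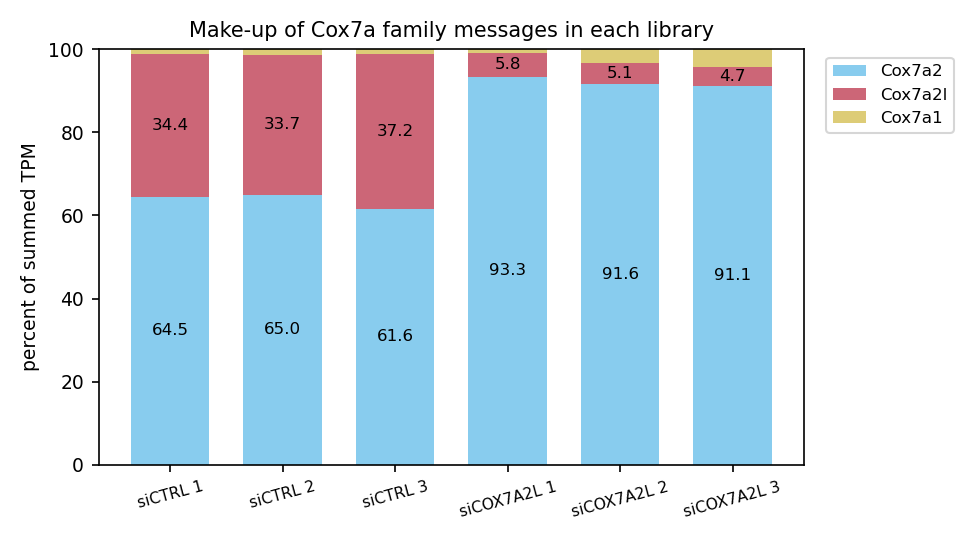
Share of Cox7a2, Cox7a2l and Cox7a1 in their summed TPM (percent, stacked from 0 to 100) in each of the 6 libraries, with Gm6969 left out. Cox7a2l takes 33.7% to 37.2% in siCTRL and 4.71% to 5.77% in siCOX7A2L.

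Higd1a (ENSMUSG00000038412.9), the hypoxia-induced factor, was not called. It had 12.4, 13.2 and 17.3 CPM in siCTRL replicates 1, 2 and 3 and 11.5, 8.71 and 15.8 CPM in siCOX7A2L. Each siCOX7A2L library was below the control of its number, at 0.924, 0.659 and 0.914 times, and the groups overlapped. A gene lower in all 3 pairs was common, at 20.8% of those tested. The fitted level was 0.825 times the control with a 95% interval from 0.628 to 1.08 (log2 fold change -0.28 ± 0.18 SE, edgeR adjusted p = 0.456). Replicate 3 was 1.35 times the mean of replicates 1 and 2 in siCTRL and 1.57 times in siCOX7A2L.

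Higd2a (ENSMUSG00000025868.7), the assembly factor, was higher in each pair but did not pass in the edgeR fit. It had 13.5, 12.2 and 20.9 CPM in siCTRL replicates 1, 2 and 3 and 17.1, 18.7 and 46.6 CPM in siCOX7A2L. The groups overlapped, since siCTRL replicate 3 lay above siCOX7A2L replicates 1 and 2. Within pairs the level was 1.27, 1.54 and 2.23 times the control, a direction in all 3 pairs that 21.2% of tested genes shared. The fitted level was 1.65 times the control with a 95% interval from 1.25 to 2.18 (log2 fold change 0.72 ± 0.18 SE, edgeR adjusted p = 0.0876). By p it had rank 408 of 15022, and 8.74% of all tested genes were higher at an unadjusted p under 0.05.

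The call of Higd2a differed between tools, filters and libraries used, and these fits also differed in how many genes they called. In the authors' deposited table it was higher, with a log2 fold change of 0.71 and adjusted p = 0.0140, where 2.89% of genes with an adjusted p were called higher. DESeq2 with the replicate block, which called 1.78% of its genes higher, gave 0.71 and adjusted p = 0.0559. EdgeR without the expression filter, which called 2.12% higher, gave 0.71 and adjusted p = 0.00252. With the block Higd2a was called without pair 1 (log2 fold change 0.90, edgeR adjusted p = 0.0282, 1.13% of genes called higher) and without pair 2 (0.76, adjusted p = 0.0126, 3.52%). It was not called without pair 3 (0.48, edgeR adjusted p = 0.237, 0.206%). The SE of Higd2a was 0.26 without pair 1 and 0.22 without pair 2, against 0.18 in the main fit. Without the filter, pair 1 or pair 2, the edgeR adjusted p of Cox7a2l was 1.3e-74, 1.0e-33 and 4.0e-45, against 1.9e-05 in the main fit. Adjusted p-values of those fits are thus on another scale and do not show a stronger change of Higd2a. Without the block the edgeR adjusted p of Higd2a was 0.810, with a log2 fold change of 0.82 that was 0.20 without siCOX7A2L replicate 3. Replicate 3 was 1.63 times the mean of replicates 1 and 2 in siCTRL and 2.60 times in siCOX7A2L. The summed myoblast markers and the unnamed row (11.1% of counts, against 5.81% to 7.57% elsewhere) were also highest in siCOX7A2L replicate 3, and their part in the Higd2a values was not tested.

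The balance of the 2 Higd genes leaned further to Higd2a in each siCOX7A2L library than in any control. The ratio of Higd2a to Higd1a TPM was 1.94, 1.60 and 2.67 in siCTRL replicates 1, 2 and 3 and 2.97, 3.75 and 6.98 in siCOX7A2L. The lowest siCOX7A2L value lay above the highest control (exact two-sided permutation test, p = 0.1, the smallest possible). That ratio was looked at after its genes' values were known, so its separation restates those values and is not a separate result. The permutation test also leaves out the replicate number. Neither gene was called in the main fit. The related Higd1b and Higd1c had 0 counts in all 6 libraries, which does not exclude a level too low for this depth.

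Some genes followed a member closely across the 6 libraries, where all genes share the same libraries with their differences in depth and replicate number. By Pearson correlation of log2 CPM with Cox7a2l among 10200 genes, the first were Akt1, a kinase of growth factor signalling (r = 0.991), Met, the receptor of hepatocyte growth factor (0.987), and the syntaxin Stx3 (0.986). Akt1 was at 0.658 times and Met at 0.606 times the control (edgeR adjusted p = 0.0488 and 0.0388), which is close to the threshold and a far smaller change than that of Cox7a2l. Without the block neither was called (edgeR adjusted p = 0.735 for each). Both were picked from 10200 genes for following Cox7a2l, so their direction is a description and not a separate result. Stx3, at 0.692 times, did not pass (edgeR adjusted p = 0.229). Closest to Cox7a2 were Gfm1, a mitochondrial elongation factor (0.993), and Ppat (0.992). Closest to Higd1a were Ift27 (0.990), Lancl3 (0.990) and Prr5 (0.987), and to Higd2a the bromodomain gene Brd3 (0.997), Borcs7 (0.996) and Sync (0.995). None of these 8 passed, with edgeR adjusted p from 0.140 to 0.642. Between members, Cox7a2 and Higd2a ran opposite (r = -0.962 over 6 libraries), with siCOX7A2L replicate 3 lowest for Cox7a2 and highest for Higd2a.

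Outside the 5 members, genes of complexes III and IV and of supercomplex formation were not called in the main edgeR test. Of 63 tested genes of these lists, 0 passed in edgeR with the block, where 7 were higher and 3 lower at an unadjusted p under 0.05, as held for 17.7% of all genes in either direction. DESeq2 with the block called 1, Crls1, as lower, where 4.11% of all its genes were called and 2.34% as lower. Without pair 2, where 7.87% of all genes were called, 8 passed in edgeR (Cox6a1, Cox7c, Uqcrq, Uqcr10, Cox19, Uqcc3 and mt-Co3 higher, Crls1 lower). Without pair 1, where 1.32% were called lower, 2 did (Crls1 and mt-Co3, both lower), and without pair 3, 0 did. Their median log2 fold change was 0.09, against 0.01 over all genes tested.

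None of the nuclear subunits of complex IV passed. All 10 tested had a positive log2 fold change (median 0.17, from 0.04 to 0.49), where 51.1% of all genes did. It was 9 of 10 on library size alone and 8 of 10 without replicate 3, where the list median was 0.095. Within pairs 1, 2 and 3 the median log2 difference of the list was 0.08, 0.05 and 0.33, so it was largest in pair 3. On TPM, where the median of all genes was -0.21, 3 of 10 were positive and 8 of 10 above that median. The highest were Cox7c, with a log2 fold change of 0.49 (edgeR adjusted p = 0.354), and Cox6a1, with 0.46 (adjusted p = 0.352), and the lowest Cox6c, with 0.04, and Cox6b1, with 0.05. Cox8a had 0.36 and the regulatory subunit Cox4i1 0.18. Cox7b had 0.06, and Ndufa4, which joins complex IV, 0.18. Cox7c stood at 101, 103 and 57.5 CPM in siCTRL replicates 1, 2 and 3 and at 118, 99.9 and 143 CPM in siCOX7A2L, so its difference came mainly from pair 3.

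Complex III subunits had a median of 0.05 over 9 tested genes. Uqcr10 and Uqcrq had log2 fold changes of 0.44 each (edgeR adjusted p = 0.177 and 0.208), and Cyc1, the cytochrome c1 subunit, and Uqcrc2 -0.12 each. The core subunit Uqcrc1 had 0.05. The 24 tested genes of complex IV assembly had a median of 0.13. They ran from Cox15, an enzyme of heme A synthesis, at -0.33 (adjusted p = 0.280), and Sco1 at -0.06, to Cox19 at 0.53 and Pet100 at 0.54 (adjusted p = 0.250 and 0.298).

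The largest differences stood among the assembly factors of complex III and the genes of cardiolipin, the inner membrane lipid that stabilises supercomplexes. Uqcc3 had 2.51, 3.58 and 0.927 CPM in siCTRL replicates 1, 2 and 3 and 4.31, 5.48 and 4.27 CPM in siCOX7A2L (log2 fold change 1.10 ± 0.33 SE, edgeR adjusted p = 0.129). It was a low gene, whose groups did not overlap, as held for 7.96% of all tested genes in that direction. Of the same list of 5, Uqcc2 had 0.35, Uqcc1 -0.05 and Bcs1l, which inserts the Rieske protein, -0.29. Crls1, the cardiolipin synthase, had 21.7, 18.6 and 20.4 CPM in siCTRL and 11.1, 16.4 and 4.83 CPM in siCOX7A2L (log2 fold change -1.0 ± 0.31 SE, edgeR adjusted p = 0.153). Its groups did not overlap, as held for 7.62% of all tested genes in that direction, and siCOX7A2L replicate 3 was the lowest. It was lower in the authors' deposited table (log2 fold change -1.03, adjusted p = 0.0205), where 3.45% of genes were called lower and 6.34% in either direction. The same table called 0 of the other 62 genes. Tamm41, which acts earlier in cardiolipin synthesis, had -0.38 (edgeR adjusted p = 0.265). The scaffold gene Stoml2 had 0.17, Ptpmt1 0.16 and Dnajc15, a negative regulator of the respiratory chain, 0.11.

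None of the 4 subunits of complexes III and IV encoded in mitochondrial DNA was called. The complex IV core subunit mt-Co1 had 4300, 4197 and 9843 CPM in siCTRL replicates 1, 2 and 3 and 3979, 3966 and 6129 CPM in siCOX7A2L (log2 fold change -0.29, edgeR adjusted p = 0.345). It was highest in replicate 3 of both groups. The values of mt-Cytb, mt-Co2 and mt-Co3 were -0.08, -0.17 and 0.07, and mt-Co3 was called lower without pair 1 and higher without pair 2.

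**Figure D5:**
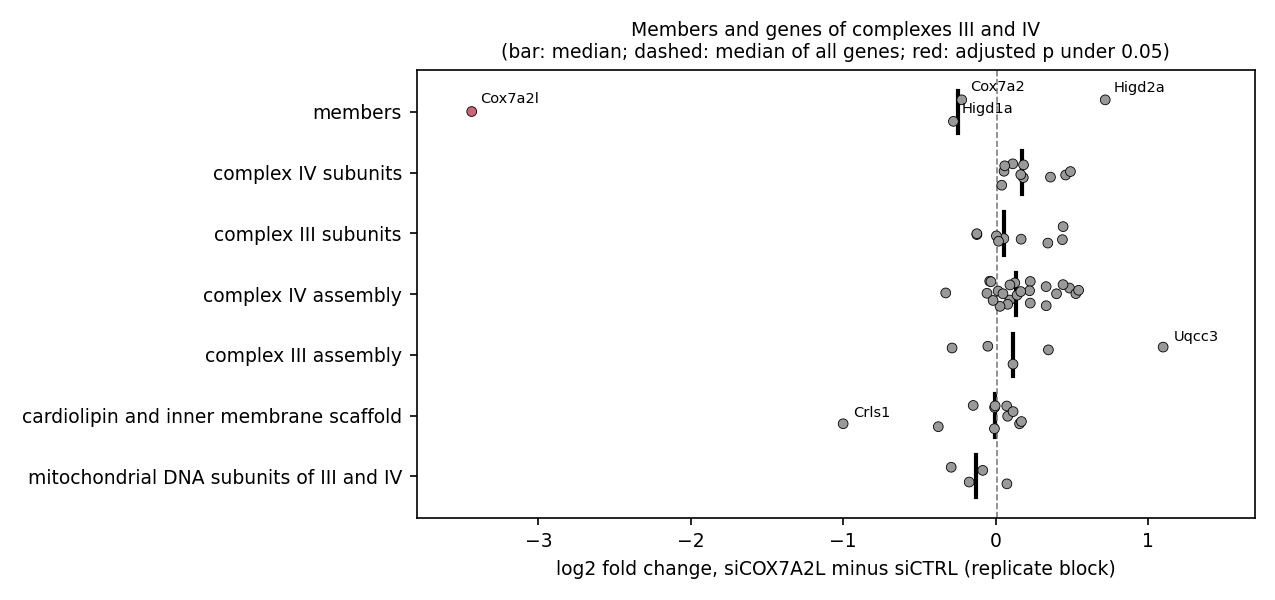
Log2 fold change (siCOX7A2L minus siCTRL, edgeR with the replicate block) of the 4 tested members and of the genes of 6 lists, with a bar for each list's median and a dashed line for the median of all genes. Cox7a2l at -3.44 is the 1 point that passed, and the next farthest are Uqcc3 at 1.10 and Crls1 at -1.0.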

How the data were processed

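The 6 libraries were rRNA-depleted and dUTP-stranded. Per the submitters' processing notes, mm39, Salmon 0.13.1, Trim Galore 0.6.4 and DESeq2 1.30.1 were used, with no role stated and no annotation release. Deposited by the authors were estimated counts per gene (12.5% to 14.3% not whole), TPM values, and a result table with log2 fold changes, p-values and adjusted p-values, per the file headers. Its 6 columns of scaled counts were not used.

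Symbols came from GENCODE M21 (GRCm38) by identifier without version (97.6% of rows), so no coordinates are given. Sequences and 31-base words were read from the GENCODE M21 transcripts, same strand only.

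Rounded counts were tested in edgeR 4.0.16 (R 4.3.3; TMM, expression filter by group, robust quasi-likelihood), with the replicate number as a block, adjusted over all genes. CPM uses TMM-scaled totals. Intervals are 95%. DESeq2 1.42.0, limma 3.58.1 on log2(TPM + 0.5), other scalings, no filter, no block and left-out libraries were alternatives. The design foresaw estimated counts as counts. Deviations from group means correlated at 0.53, 0.45 and 0.67 between same-numbered libraries, so the numbers were taken as pairs, although replicates 1 and 2 also correlated across numbers (0.44 and 0.43). The procedure was run on counts simulated from the fitted block model, which cannot test the choice of the block.

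Members, lists and the block were chosen with earlier results of these data known. Named were the members, rows sharing at least 20% of words with them, the 3 genes per tested member most like it (mean of at least 5 CPM), the 2 highest and 2 lowest of each list, and a fixed set; not all are printed.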

Additional observations from a re-analysis of the deposited data

How the results depend on the processing

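Direction held for the 4 tested members under each of the 19 alternatives tried for each. Cox7a2 and Higd1a were called in none. Cox7a2l kept its call in 14, with log2 fold changes from -3.65 to -3.22 when libraries were left out, and without the replicate block it was -3.43. The 5 that lost the call each dropped 1 library without the block. For siCTRL replicates 1, 2 and 3 and siCOX7A2L replicates 1 and 2 the values were -3.44, -3.42, -3.42, -3.61 and -3.49. Higd2a was called without the expression filter (0.71), without pair 1 (0.90) and without pair 2 (0.76), fits that also called more genes than the main fit. It ranged from 0.20 to 1.09 with libraries left out and was 0.82 without the replicate block.

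The number of genes called with the replicate block was 109. It was 2 without the block, 197 with a term for replicate 3, 58 on library size alone, 493 with DESeq2 and the block, 27 with DESeq2 and no block, 1257 without the filter, 14 and 9 by limma on log2(TPM + 0.5) and log2(TPM + 0.1), and from 0 to 1210 with libraries left out, with 373, 1210 and 51 without pairs 1, 2 and 3. The 63 pathway genes gave 0 calls in the main fit and 1 with DESeq2 and the block, where 4.11% of all genes were called. Without the filter they gave 6 (Cox6a1, Cox7c, Uqcrq, Cox14 and Uqcc3 higher, Crls1 lower), where 1257 of 26739 genes were called. With libraries left out they gave from 0 to 8, the 8 without pair 2, where 7.87% of all genes were called. The fall of the Cox7a2l share was 29.9 percentage points and 42.5 from counts without transcript length. It was 51.9 with the TPM of the short Gm6969 transcript added. Depth limits Cox7a1 most, at 4 to 13 counts. The cause of these differences was not tested.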
